A study of Mus musculus with 4 samples.

Results

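Macrophages and monocytes that carried transcripts of 2 proliferation genes made up about 1% of a macrophage and monocyte gate. The gated cells were sorted from mouse brains bearing mammary tumours. They numbered 86 cells, 34 from vehicle-treated and 52 from SCDi-treated mice. These were 86 of 7451 cells of the gate, of 13412 barcodes kept from the 2 immune libraries and of 30856 barcodes deposited for the whole series. The 7451 cells met the rule below apart from its 2 proliferation genes. They are called myeloid cells here, although the rule leaves out other myeloid cells such as most microglia. A cell was taken when it held at least 1 UMI (unique molecular identifier, 1 captured RNA molecule) of Mki67 and at least 1 of Top2a. Mki67 encodes the proliferation antigen Ki-67, a coat of mitotic chromosomes, and Top2a encodes the topoisomerase that untangles replicated DNA. The cell also needed at least 5 UMIs summed over Csf1r, Cd68 and Adgre1, the genes of the CSF1 receptor, a lysosomal macrophage glycoprotein and the F4/80 antigen. Cells with 3 or more of 5 microglia genes (Tmem119, P2ry12, Sall1, Gpr34 and Fcrls), any Flt3 (a dendritic cell receptor) or at least 3 UMIs over 6 genes of lymphocytes did not enter, nor did barcodes with under 300 genes or over 15% mitochondrial UMIs.

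Female C57BL/6 mice with an intact immune system had received EO771 cells, a mouse mammary carcinoma line made to express GFP, inside the skull. They were treated for 14 days with vehicle or with SCDi. The labels name the agent only so; the title of the series speaks of targeting SCD, stearoyl-CoA desaturase, which makes monounsaturated from saturated fatty acids, and neither compound nor dose is named there. Brains of 3 mice per treatment were pooled before sorting, and each pool gave 1 library of live CD45+ GFP- immune cells and 1 of live CD45- GFP+ tumour cells, both made with the 10x Genomics 3' chemistry. All groups therefore share the tumour line, strain, sex and duration, and each condition is 1 library. There is no test across mice: every interval below is a 95% interval for counting error only, and a difference between the libraries compares those libraries.

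Tissue macrophages arise from embryonic precursors that renew locally or from blood monocytes that enter and mature. Blood monocytes rarely divide, whereas mature macrophages can enter the cell cycle under growth factors such as CSF1. A dividing cell switches on replication genes in S phase, driven by E2F factors, and then genes of G2 and mitosis, many of which are controlled through CCAAT boxes and the cell cycle homology region (CHR) of their promoters.

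Since Mki67 and Top2a chose the cells, every comparison with cells lacking them is a description, with no test. Mki67 had a median of 1 UMI in the vehicle members (range 1 to 53) and 3 in the SCDi members (1 to 51). Top2a had a median of 2 (1 to 85) and 4 (1 to 60). Exactly 1 UMI of each gene was held by 10 vehicle and 11 SCDi members, and at least 10 UMIs of each by 6 and 12. Just outside stood 173 vehicle and 204 SCDi cells with Mki67 alone, and 187 and 229 with Top2a alone. Summed macrophage gene UMIs of 5 or 6 were seen in 1 member of each library, and 4 vehicle and 3 SCDi cells with 3 or 4 were otherwise alike. Of the 5 microglia genes, 11 vehicle and 13 SCDi members held 2, and 12 and 18 held none. Of 330 vehicle and 284 SCDi barcodes with both proliferation genes, 111 and 105 were left out with at least 3 microglia genes, among those with enough macrophage UMIs. Csf1r was present in all 86 members, and Cd68 in 32 of 34 and 51 of 52, which the rule favours. Between the immune libraries 14 barcode sequences were shared, and none of them belonged to a member.

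Cells with both genes, called double-positive here, were rich in RNA. They held a median of 37495.5 UMIs per cell in the vehicle library (3769 to 107414) and 44137 in the SCDi library (4516 to 92691). Cells of the same gate with neither proliferation gene, called non-cycling here, had medians of 15907 and 17127 over 3247 and 3325 cells. Median mitochondrial shares were 2.04% and 2.34% in the double-positive cells against 1.68% and 1.80%. Needing a UMI of both genes favours deeply captured cells, so the medians of the main lists are also given for cells of matched depth. High doublet scores marked 1 of 34 (2.94%) and 4 of 52 (7.69%) double-positive cells, against 2.40% and 2.59% of non-cycling cells. The median scores were 0.056 and 0.074 against 0.026 in both libraries, and the part of doublets in the results was not tested. In neutrophils, which do not divide, 0 of 49 vehicle and 0 of 42 SCDi cells held both genes at median depths of 3670 and 4663 UMIs, which allows up to 6.12% and 7.14%.

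Transcripts of other cell types stood out in 4 members. A vehicle cell of 107414 UMIs held 159 of Krt8, a keratin of the EO771 line, and 0 of Ptprc, the CD45 gene. A vehicle cell of 78931 UMIs held 288 of Lhfpl3, 238 of Brinp3 and 74 of Olig1, genes of the oligodendrocyte lineage, beside 50 of Mki67 and 85 of Top2a. A vehicle cell of 21641 UMIs held 71 UMIs of Ccr7, a receptor of migrating dendritic cells. Of the dendritic cell markers Zbtb46 and Fscn1 it held 1 and 0. An SCDi cell held 149 of S100a8 and 106 of S100a9, which are neutrophil genes, beside 51 of Cd68. The 3 vehicle cells gave 7.64%, 5.61% and 1.54% of all double-positive UMIs of their library, and the SCDi cell 2.74%. Results that rest on them are given with and without these 4 cells, a choice made after seeing the data, and the other 31 and 51 are called the remaining members. Summed levels of 10 EO771 markers were 119 CPM (UMIs of a gene per 1000000 UMIs) in the vehicle double-positive cells against 19.4 in the non-cycling ones, and 24.3 against 20.6 in the SCDi library. Krt18, Krt19, Epcam, Cldn3, Cldn4 and Prelp were at 0 in the double-positive cells of both. At least 1 UMI of Krt8 was held by 2 of 34 vehicle and 11 of 52 SCDi members (21.2%, 11.1 to 34.7; at most 4 UMIs), against 2.06% and 3.19% of the shallower non-cycling cells.

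Other marker lists were detected in both kinds of cell, some higher and some lower. Summed over 10 microglia markers, double-positive cells had 1931 and 2121 CPM in the vehicle and SCDi libraries, against 2083 and 2319 in non-cycling cells. The T and NK list gave 27.7 and 43.2 CPM against 52.3 and 56.8, with 13 and 14 of its 14 genes detected (Ncr1 at 0 in vehicle). Neutrophil markers gave 86.7 and 188 CPM against 209 and 121, with Camp, Ngp, Elane and Mpo at 0 in both double-positive sets. The dendritic cell list gave 89.6 and 44.6 CPM against 70.2 and 48.8. What these transcripts contribute to the results was not tested.

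Genes of the cell cycle separated some members from the non-cycling cells and left others within their range. UMIs of the S phase and the G2 and mitosis lists, neither of which holds Mki67 or Top2a, were counted per 10000 UMIs of a cell. The vehicle members ran from 2.92 over a median of 14.3 to 133, and the SCDi members reached a median of 30.8. Non-cycling cells had medians of 5.87 and 5.66 and 99th percentiles of 17.2 and 19.4. Above that percentile stood 16 of 34 vehicle members (47.1%, 29.8 to 64.9) and 32 of 52 SCDi members (61.5%, 47.0 to 74.7). At or below the non-cycling median stood 5 and 7 members. The members not above the percentile held at most 3 UMIs of Mki67 in either library. In their cell cycle transcripts these 18 vehicle and 20 SCDi cells lay within the range of the non-cycling cells, so the label of cycling cells rests for them on a few UMIs of the 2 genes that chose them. Among cells with Mki67 or Top2a alone, 11 of 360 (3.06%) and 19 of 433 (4.39%) were above it.

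**Figure D1:**
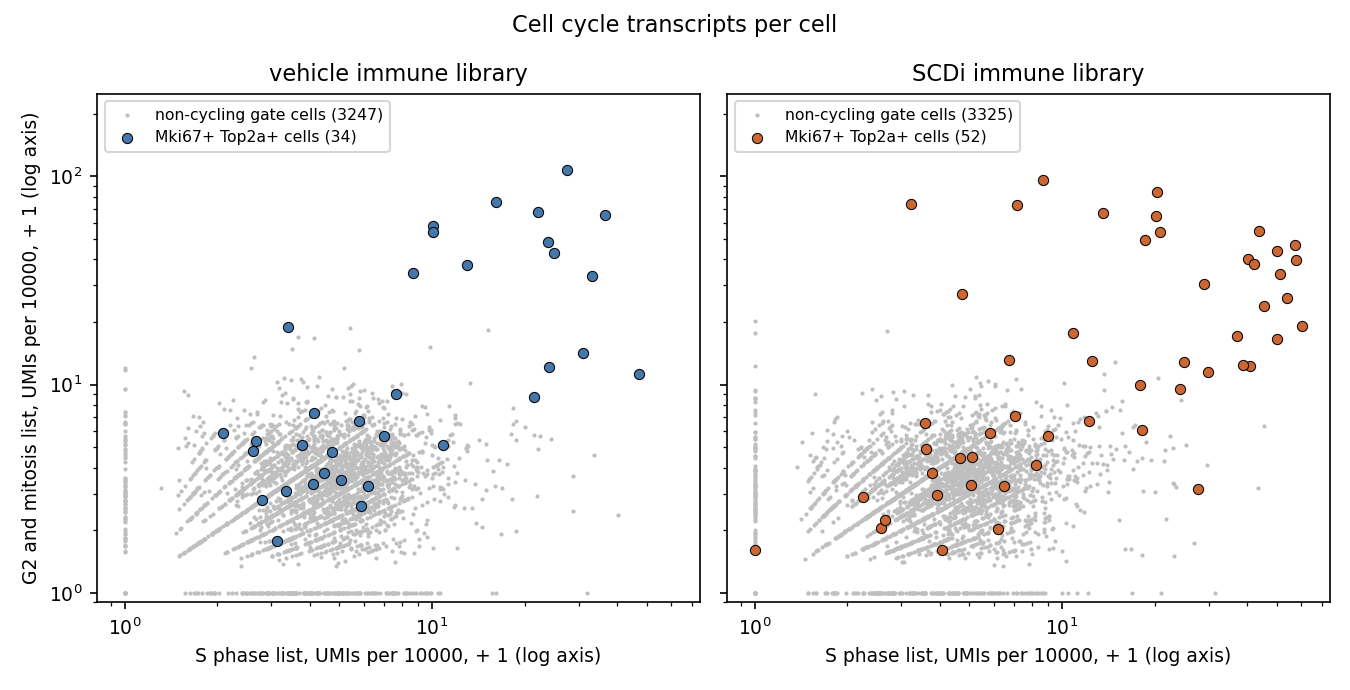
Each point is a cell, with UMIs of the S phase list (x) and of the G2 and mitosis list (y) per 10000 UMIs, plus 1, on log axes; grey points are non-cycling myeloid cells and coloured points the 34 vehicle (left) and 52 SCDi (right) cells with Mki67 and Top2a. Of the coloured points, 16 and 32 lie above the 99th percentile of the grey ones in the summed lists, and the rest lie among them.

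The balance of the phases was compared at a fixed depth. With every cell thinned to 5000 UMIs, 14 of 32 vehicle members (43.8%, 26.4 to 62.3) and 27 of 50 SCDi members (54.0%, 39.3 to 68.2) had more S than G2 and mitosis UMIs. The reverse held in 16 and 15, and the medians were 4 and 6 UMIs for S against 3 and 6 for G2 and mitosis. Thinned to 10000 UMIs, the first shares were 25.8% of 31 and 49.0% of 49 cells. Among members above the 99th percentile, at full depth, 4 of 16 vehicle and 19 of 32 SCDi cells had more S UMIs. The intervals at 5000 UMIs overlap, and a phase call on 3 to 6 UMIs is coarse.

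Genes of replication were higher in the double-positive than in the non-cycling cells of both libraries. In the vehicle library 34 of 34 measured S phase genes were higher, where 58.5% of all genes at 5 CPM or more were higher, and 31 of them by over 1.5-fold, which 24.9% of genes passed. The median log2 ratio of the list was 3.11. In the SCDi library 35 of 35 were higher, against 58.9% of genes (22.8% by over 1.5-fold), with a median of 3.53. The median over all genes was 0.12 in each. A fold of 1.5 is the line used for a called gene throughout. The rule takes genes of 50 CPM or more, of which 12.5% in vehicle and 14.8% in SCDi were over 1.5-fold higher and 10.6% and 12.6% lower. Pclaf, the PCNA clamp-associated factor, gave the largest ratio under the rule for named genes: 170 CPM against 1.10 in vehicle (log2 ratio 7.26, 6.87 to 7.69) and 272 against 0.975 in SCDi (8.11, 7.75 to 8.52). It was detected in 15 of 34 and 28 of 52 members, and the other members held none.

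Rrm2, a subunit of ribonucleotide reductase, was at 64.7 CPM against 1.05 in vehicle (5.95) and 95.7 against 0.838 in SCDi (6.83). Of its 91 UMIs in the vehicle members, 14 came from the mixed cell rich in Krt8 and 31 from that with oligodendrocyte lineage transcripts. Tk1, thymidine kinase, was at 65.4 against 2.30 (4.83) and 130 against 2.32 (5.81). Mcm5, part of the replicative helicase, was at 49.8 against 4.93 (3.34) and 98.4 against 5.71 (4.11). Pcna, the sliding clamp, which also serves DNA repair, differed less: 223 CPM against 86.0 (1.38) and 287 against 84.6 (1.76). Pcna was found in 29 of 34 and 44 of 52 members, against 14 and 33 for Mcm5.

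Genes of G2 and mitosis had the highest median of the lists. All 48 measured genes were higher in both libraries, with median log2 ratios of 5.25 in vehicle and 4.99 in SCDi. In the remaining members 47 of 47 were higher in vehicle and 48 of 48 in SCDi. The medians there were 4.71 and 5.02, so the order of the libraries turned. Ccna2, cyclin A2, was at 54.7 CPM against 0.481 (6.82) and 55.1 against 0.350 (7.27). Birc5, the survivin subunit of the chromosomal passenger complex, was at 149 against 1.80 (6.37) and 191.5 against 2.04 (6.55). Kif11, the motor that separates spindle poles, was at 76.8 against 0.773 (6.63) and 56.5 against 0.762 (6.20). Cdk1, the kinase that starts mitosis, was at 73.9 against 1.41 (5.71) and 123 against 2.07 (5.88), from 16 of 34 and 31 of 52 members. Ube2c, the ubiquitin carrier of the anaphase-promoting complex, was at 107 against 1.73 (5.95) and 104 against 1.86 (5.80). Cdca3, Stmn1, Cenpe, Knl1 and Diaph3 completed the 12 highest named genes, with log2 ratios between 5.26 and 6.17.

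The ratios were smaller in cells of matched depth. Among cells of 10000 to 40000 UMIs, which held 16 vehicle and 19 SCDi members, the S phase median was 0.22 in vehicle and 2.50 in SCDi. That of G2 and mitosis was 2.69 and 2.86. Both medians were above 0 in this window in each library, and that of S phase in vehicle was close to 0. Only 2 of the 16 vehicle and 6 of the 19 SCDi members in it were above the 99th percentile of cell cycle UMIs, and the part of depth was not tested.

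Letters of known control elements were searched in the promoters of the mitotic genes. The 250 bases before the start site (RefSeq, GRCm38.p6) were searched on either strand, and a gene counted when any of its promoters matched. The CHR letters TTTGAA occurred in 14 of 39 G2 and mitosis genes with an entry, of 48 (35.9%), and in 18.3% of all 27025 genes with an entry. CCAAT occurred in 29 of 39 (74.4%) and in 37.5% of all. E2F letters (TTTCCCGC, TTTGGCGC, TTTCGCGC or TTTGCCGC) occurred in 6 of 28 S phase genes (21.4%) and in 2.16% of all. Ube2c (chr2:164769809-164769928, plus strand), Kif11 (chr19:37376262-37376381, plus) and Cdk1 (chr10:69352913-69353032, minus) are shown because they hold the letters of both elements close to the start. Others do not: Birc5 had no match of either, and Cdca3 had CCAAT without the CHR letters. Each window ends at the base before the start site, and capitals mark the CHR and CCAAT letters on either strand.
Ube2c: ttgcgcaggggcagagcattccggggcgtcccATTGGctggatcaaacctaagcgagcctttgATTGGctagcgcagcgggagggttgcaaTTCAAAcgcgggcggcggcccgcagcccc
Kif11: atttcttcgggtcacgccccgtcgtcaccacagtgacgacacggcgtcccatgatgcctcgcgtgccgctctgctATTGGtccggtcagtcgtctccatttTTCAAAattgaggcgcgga
Cdk1: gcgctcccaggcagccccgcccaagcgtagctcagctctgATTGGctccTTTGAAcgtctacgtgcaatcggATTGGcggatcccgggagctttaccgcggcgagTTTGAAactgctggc

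In Kif11 and Ube2c a CHR match lies downstream of the CCAAT match nearest the start, and Cdk1 holds 2 CHR matches. A match is a string of letters, not a measured binding site.

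Chromatin genes followed. Of 20 measured histone and chromatin assembly genes 20 were higher in vehicle and 19 in SCDi, with medians of 2.45 and 2.42. In the remaining vehicle members 17 of 19 were higher, with a median of 1.99. H2afz, a replication-independent histone, was at 1333 CPM against 498 (1.42) and 1178 against 468 (1.33), in 33 of 34 and 50 of 52 members. Hmgb2, a chromatin protein abundant in dividing cells, was at 446 against 122 (1.88) and 596 against 130 (2.19). Most histone mRNAs of S phase lack a poly(A) tail, so a poly(A)-primed library captures only part of them. Genes that feed DNA synthesis were higher as well: 18 of 18 genes of nucleotide and one-carbon synthesis in both libraries, with medians of 1.61 and 1.47 (0.92, with 16 of 16 measured, in the remaining vehicle members). Among nuclear genes of the respiratory chain 23 of 23 were higher in both, by a median of 0.30 and 0.35, none of them by over 1.5-fold in vehicle and 5 in SCDi. Of all genes 58.5% and 58.9% were higher, and 24.9% and 22.8% by over 1.5-fold. In cells of 10000 to 40000 UMIs the respiratory medians were 0.029 and 0.16.

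The genes that set entry into the cycle moved in no common direction. Of 20 cyclins, CDKs and brakes of G1, 11 were higher in vehicle and 12 in SCDi, with medians of 0.05 and 0.095, close to the 0.12 of all genes. Ccnd1, cyclin D1, was at 221 CPM against 80.8 (1.45) and 250 against 119 (1.08). Cdk4, its partner kinase, was at 85.3 against 33.9 (1.34) and 135 against 35.7 (1.92). Cdkn2c, the CDK4 and CDK6 inhibitor p18, was also higher, at 21.3 against 2.47 (3.13) and 30.4 against 2.24 (3.77). The antiproliferative genes Btg1 and Btg2 were lower: Btg1 by -0.69 and -1.10, and Btg2 by -0.84 and -0.92. Of 14 genes of growth factors and their receptors 5 and 4 were higher, with medians of -0.43 and -0.42. Of all genes 58.5% and 58.9% were higher.

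**Figure D2:**
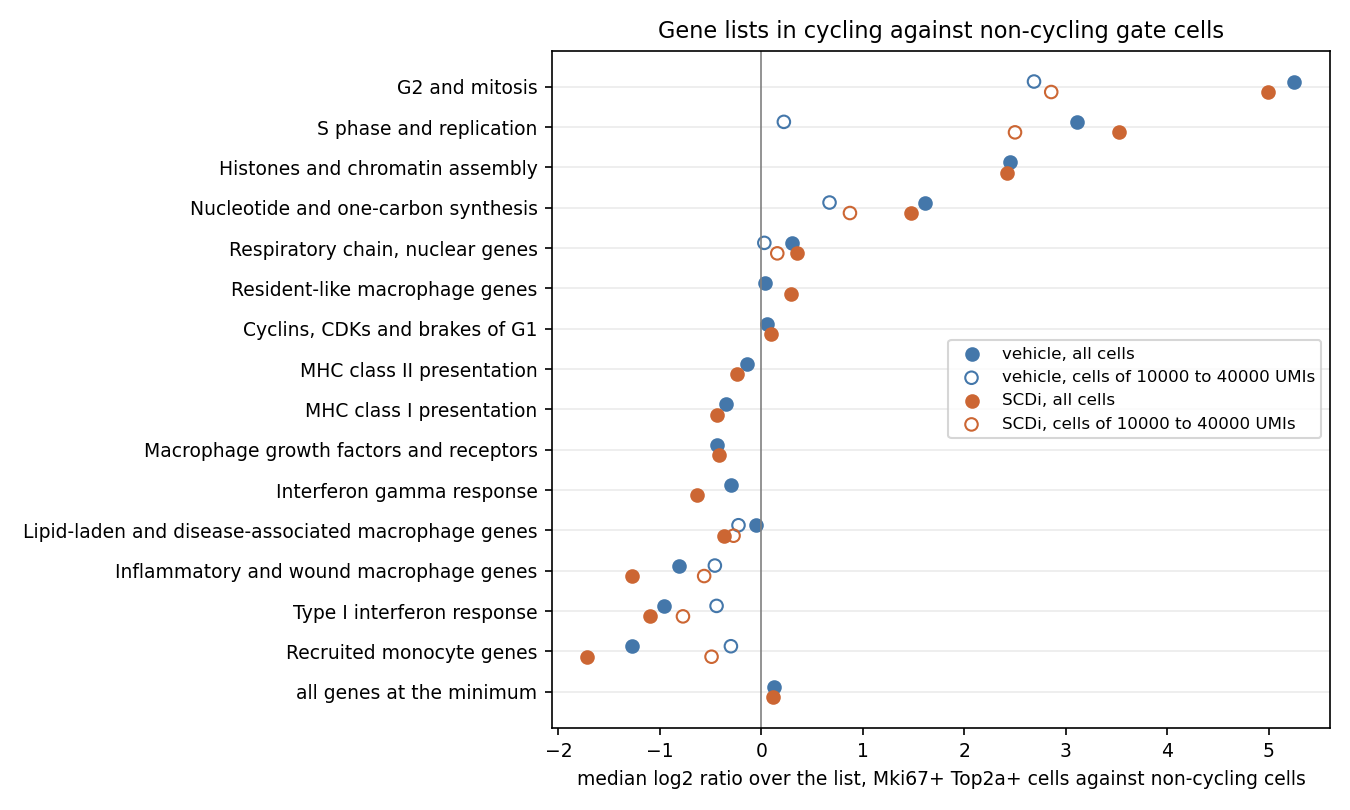
Median log2 ratio (x) of each gene list (y) in Mki67+ Top2a+ cells against non-cycling cells of the same library, for vehicle (blue) and SCDi (orange); open circles, drawn for 8 of the lists, use only cells of 10000 to 40000 UMIs. The G2 and mitosis medians of all cells lie at 5.25 and 4.99 and those of recruited monocyte genes at -1.27 and -1.71, and the open circles lie nearer to 0 in all lists shown except the lipid-laden list of the vehicle library.

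Genes of recruited monocytes were lower in the double-positive cells. Of 17 measured genes 17 were lower in both libraries, where 41.5% of genes in vehicle and 41.1% in SCDi were lower. By over 1.5-fold 13 were lower in vehicle and 16 in SCDi, against 9.61% and 10.4% of genes, and the medians were -1.27 and -1.71. Ly6c2, the surface marker of inflammatory monocytes, had a median of 0.54 UMIs per 10000 in the vehicle members (0 to 66.1) and 0.50 in the SCDi members (0 to 56.4), against 5.37 and 8.02 in non-cycling cells. In summed levels this was 304 CPM against 1083 (-1.83, -1.98 to -1.70) and 353 against 1590 (-2.17, -2.27 to -2.07). Plac8 had medians of 0.31 and 0.41 per 10000 against 6.27 and 9.10. F13a1, the coagulation factor XIII chain of classical monocytes, was at 44.1 CPM against 232 (-2.39) and 32.2 against 176 (-2.44). Chil3 was at 316 against 1208 (-1.93) and 300.5 against 989 (-1.72), and Ccr2, the receptor that brings monocytes out of the marrow, at 308 against 621 (-1.01) and 185 against 497 (-1.43). The members were spread widely, from no Ly6c2 to far above the non-cycling median.

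C1q, the complement component made by mature macrophages, went the other way. C1qa had a median of 25.4 UMIs per 10000 in the vehicle members (0 to 90.1) and 41.3 in the SCDi members (0 to 97.8), against 1.18 and 1.56 in non-cycling cells. In summed levels the gap was smaller, 2715 CPM against 1676 (0.70, 0.65 to 0.74) and 4153 against 1941 (1.10, 1.07 to 1.13), and single non-cycling cells held up to 231 and 206 UMIs per 10000. C1qc was at 1892 against 983 (0.94) and 2543 against 1161 (1.13). Of the resident-like macrophage genes 9 of 17 were higher in vehicle and 12 of 16 in SCDi, with medians of 0.032 and 0.29. Over all genes 58.5% and 58.9% were higher, with a median of 0.12 in each library. In vehicle the list thus did not exceed the genes at large. In the remaining members 12 of 16 and 11 of 16 were higher, with medians of 0.21 and 0.29, and above the 99th percentile 10 of 16 and 8 of 16, with 0.54 and 0.026. Folr2 was at 79.6 CPM against 65.9 in vehicle and 37.5 against 61.5 in SCDi, and Mrc1, the mannose receptor, at 645 against 672 and 614 against 587.

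**Figure D3:**
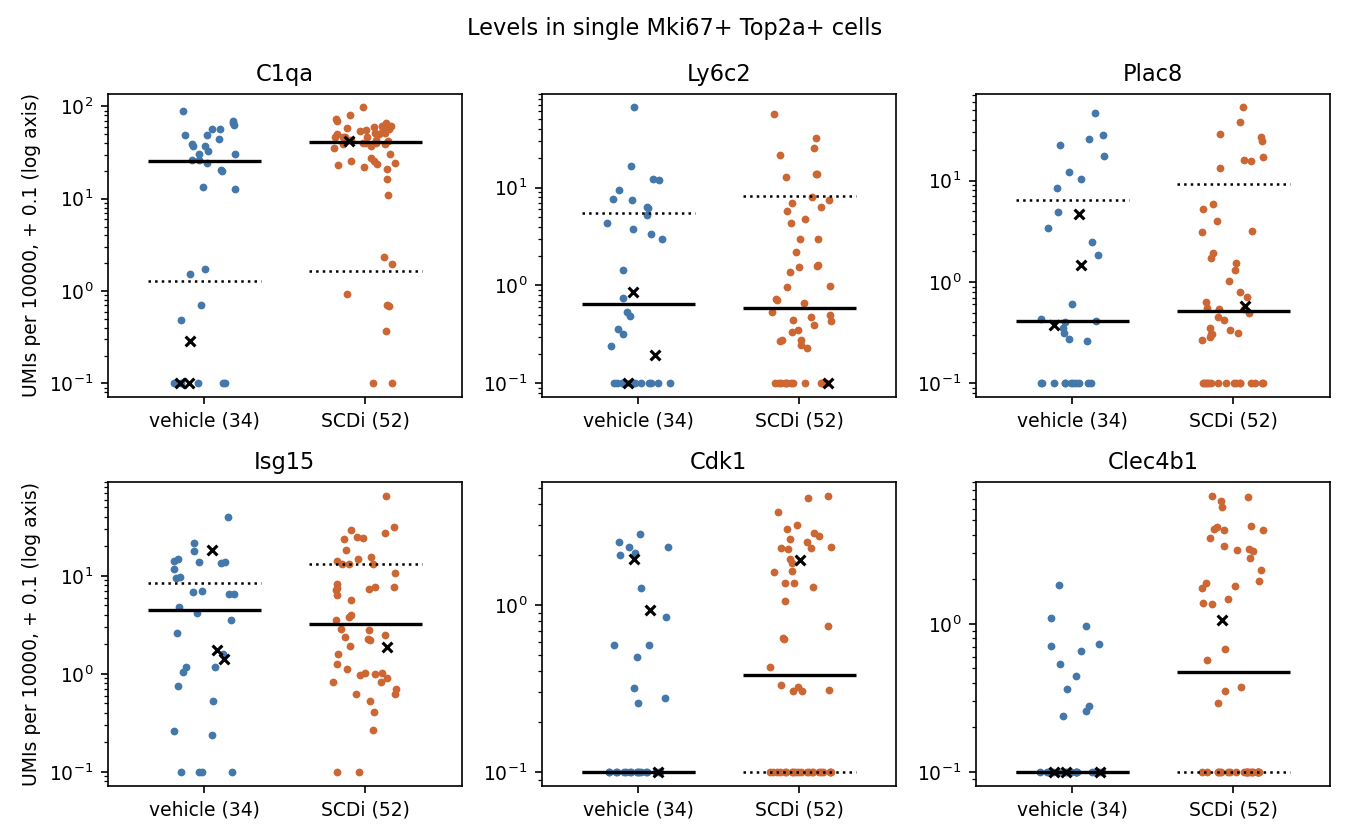
UMIs per 10000, plus 0.1, on a log axis for 6 genes; each dot is 1 of the 34 vehicle or 52 SCDi Mki67+ Top2a+ cells, crosses are the 4 cells with transcripts of another cell type, solid lines the members' medians and dotted lines the medians of non-cycling cells. C1qa medians lie at 25.4 and 41.3 above dotted lines near 1, and Ly6c2, Plac8 and Isg15 medians lie below theirs.

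Depth moved with this pattern. After thinning to 5000 UMIs, 20 of 32 vehicle members (62.5%, 43.7 to 78.9) and 43 of 50 SCDi members (86.0%, 73.3 to 94.2) held at least 5 C1qa UMIs, against 34.7% of 3159 and 36.9% of 3252 non-cycling cells. Among cells of over 40000 UMIs at full depth the shares were 12 of 15 and 29 of 30 against 63.6% of 99 and 78.0% of 173. Among cells of 20000 to 40000 UMIs they were 3 of 9 and 12 of 14 against 55.4% and 58.0%. C1qa was more frequent in deep non-cycling cells, and over 40000 UMIs the intervals of the 2 kinds of cell overlapped in both libraries. At least 5 thinned UMIs of Ly6c2 were held by 0 of 15 (up to 20%) and 1 of 30 members of over 40000 UMIs, against 28.3% and 33.5% of non-cycling cells of that depth. For Plac8 this was 3 of 15 and 2 of 30 against 48.5% and 41.6%. In shallower cells the members were not lower in every window. Between 20000 and 40000 UMIs Ly6c2 gave 2 of 9 and 6 of 14 (42.9%) against 26.9% and 40.6%, and Plac8 4 of 9 (44.4%) and 5 of 14 (35.7%) against 32.1% and 28.8%. Between 5000 and 20000 UMIs Ly6c2 gave 4 of 8 and 2 of 6 against 43.6% and 52.5%, and Plac8 1 of 8 and 3 of 6 against 51.3% and 60.5%. In cells of 10000 to 40000 UMIs the median of the recruited monocyte list was -0.30 and -0.49. These windows were chosen in part after seeing the data, and the part of depth in the difference was not tested.

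Interferon-induced genes were lower in the double-positive cells. Of 22 measured genes of the type I response none was higher in either library, and 20 in vehicle and 21 in SCDi were over 1.5-fold lower, where 41.5% and 41.1% of genes were lower and 9.61% and 10.4% by over 1.5-fold, with medians of -0.96 and -1.10. Isg15, the ubiquitin-like modifier, had medians of 4.39 and 3.14 UMIs per 10000 in the members against 8.46 and 13. Summed, it was at 682 CPM against 1724 (-1.34, -1.43 to -1.25) and 765 against 2035 (-1.41, -1.48 to -1.34). Ifit1, which binds viral RNA, was at 123 against 321 (-1.38) and 127 against 360 (-1.50), and Irf7, the factor that amplifies the response, differed by -1.06 in vehicle and, at 476 against 855 CPM, by -0.84 in SCDi. Slfn5, another induced gene among the 12 lowest by the rule, was at 171 against 484 (-1.49) and 191.5 against 520 (-1.44). At 10000 to 40000 UMIs the list medians were -0.44 and -0.77. Of 15 genes of the interferon gamma response 6 were higher in vehicle and 1 in SCDi, with medians of -0.30 and -0.64. Of all genes 58.5% and 58.9% were higher.

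A string of letters was searched in the interferon-induced promoters. A pair of GAAA separated by 2 bases is the core of the interferon-stimulated response element. On either strand it occurred in 10 of 17 type I genes with an entry, of 23 (58.8%). It occurred in 0 of 13 recruited monocyte genes and in 3.46% of all 27025 genes with an entry. Ifit1 (chr19:34640769-34640888, plus strand) and Isg15 (chr4:156200819-156200938, minus) are shown with these letters or their reverse complement in capitals, overlapping in Isg15.
Ifit1: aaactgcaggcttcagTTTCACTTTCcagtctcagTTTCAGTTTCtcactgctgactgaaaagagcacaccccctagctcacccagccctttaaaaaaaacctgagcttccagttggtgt
Isg15: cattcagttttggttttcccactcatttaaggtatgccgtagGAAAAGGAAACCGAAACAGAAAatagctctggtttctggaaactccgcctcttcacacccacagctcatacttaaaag

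Isg15 holds 3 overlapping matches and Ifit1 holds 2, while Ifit2 had none. Whether factors bound there was not measured.

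Inflammatory genes were mostly lower too. Of 18 inflammatory and wound genes measured in vehicle 3 were higher (median -0.81), and of 19 in SCDi 5 (median -1.27). Of all genes 58.5% and 58.9% were higher. Il1b was at 751 CPM against 1362 (-0.86) and 644 against 1114 (-0.79). Among the lowest named genes, Saa3, an acute-phase gene, was at 5.69 against 74.7 (-3.63) and 2.21 against 110 (-5.51), detected in 2 of 34 and 4 of 52 members. Spp1, osteopontin, was at 151 against 1569 (-3.38, -3.58 to -3.19) in vehicle and 489 against 1846 (-1.91, -2.00 to -1.83) in SCDi. Dmkn, Mcemp1, Ifit1bl1 and Upp1 were also among the 12 lowest, between -1.48 and -2.19 in both libraries. Each of the 24 named genes kept its direction in both libraries under every alternative run.

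Antigen presentation lists had medians nearer 0 than the inflammatory list, and lipid handling lists varied between the libraries. MHC class II genes were higher in 3 of 10 in each library, and H2-Ab1 was at 2205 against 2494 CPM in vehicle. MHC class I genes were higher in 2 and 3 of 18, with medians of -0.35 and -0.43, where 58.5% and 58.9% of all genes were higher. Of 20 genes of lipid-laden macrophages 9 were higher in vehicle (median -0.053) and 4 in SCDi (-0.37). Within it Lpl, lipoprotein lipase, was higher, at 274 CPM against 93.2 (1.56) and 257 against 129 (1.00). Gpnmb was lower, at 113 against 263 (-1.22) and 50.7 against 231 (-2.18), and was found in 19 of 34 but 7 of 52 members. Cholesterol synthesis genes were higher in 16 of 19 in vehicle (0.75) and in 6 of 20 in SCDi (-0.13). Without the mixed members the vehicle count was 11 of 17, where 55.1% of genes were higher, and the median 0.094.

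The share of double-positive cells was compared between the libraries at a fixed depth. Thinned to 5000 UMIs, 8 of 3548 vehicle (0.225%, 0.097 to 0.444) and 12 of 3732 SCDi myeloid cells (0.322%, 0.166 to 0.561) kept both genes, a difference of 0.096 percentage points (-0.16 to 0.36). At full depth the shares were 0.934% (0.648 to 1.30) and 1.36% (1.02 to 1.79), a difference of 0.43 (-0.058 to 0.93). Both intervals of the difference hold 0, so by the rule of both genes no gap could be detected with this many cells. Thinning left out 93 and 78 shallower cells. With Mki67 or Top2a in place of both, the thinned shares were 3.49% and 4.34%, 0.85 apart (-0.049 to 1.74), and the unthinned shares 10.8% and 12.7%, 1.91 apart (0.44 to 3.37), an interval that does not hold 0. Other definitions were chosen after seeing the data. Remaining members were 31 (0.851%) and 51 (1.34%), 0.49 apart (0.010 to 0.97). Those above the 99th percentile of cell cycle UMIs were 14 (0.385%) and 31 (0.814%), 0.43 apart (0.075 to 0.80). Cells with at least 15 of 5000 UMIs from the S and the G2 and mitosis lists, whatever the 2 genes, were 21 of 3548 (0.592%) and 43 of 3732 (1.15%), 0.56 apart (0.13 to 1.01). These intervals hold for 2 pooled libraries and say nothing of the spread between mice.

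Double-positive cells occurred across most of the expressed states. Myeloid cells were grouped by at least 3 of 5000 thinned UMIs of marker genes, which gives overlapping ranges and not types; between 62 and 496 cells lay beside each line. Of cells with F13a1, 0 of 540 in vehicle (up to 0.556%) and 2 of 471 in SCDi were double-positive, and none was above the 99th percentile of cell cycle UMIs. Of cells with Folr2 and Pf4 transcripts, 4 of 500 (0.80%, 0.218 to 2.04) and 8 of 406 (1.97%, 0.854 to 3.85) were. Of cells with Cxcl9, an interferon gamma target, 8 of 861 and 14 of 910 (1.54%, 0.844 to 2.57) were. Cells of the interferon range gave 18 of 2418 (0.744%) and 26 of 2924 (0.889%). Among all myeloid cells of at least 5000 UMIs the shares were 0.902% (0.618 to 1.27) and 1.34% (0.996 to 1.76). Only the marker genes were thinned here, and Mki67 and Top2a were counted at full depth. The depth of the cells was not compared between the ranges.

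**Figure D4:**
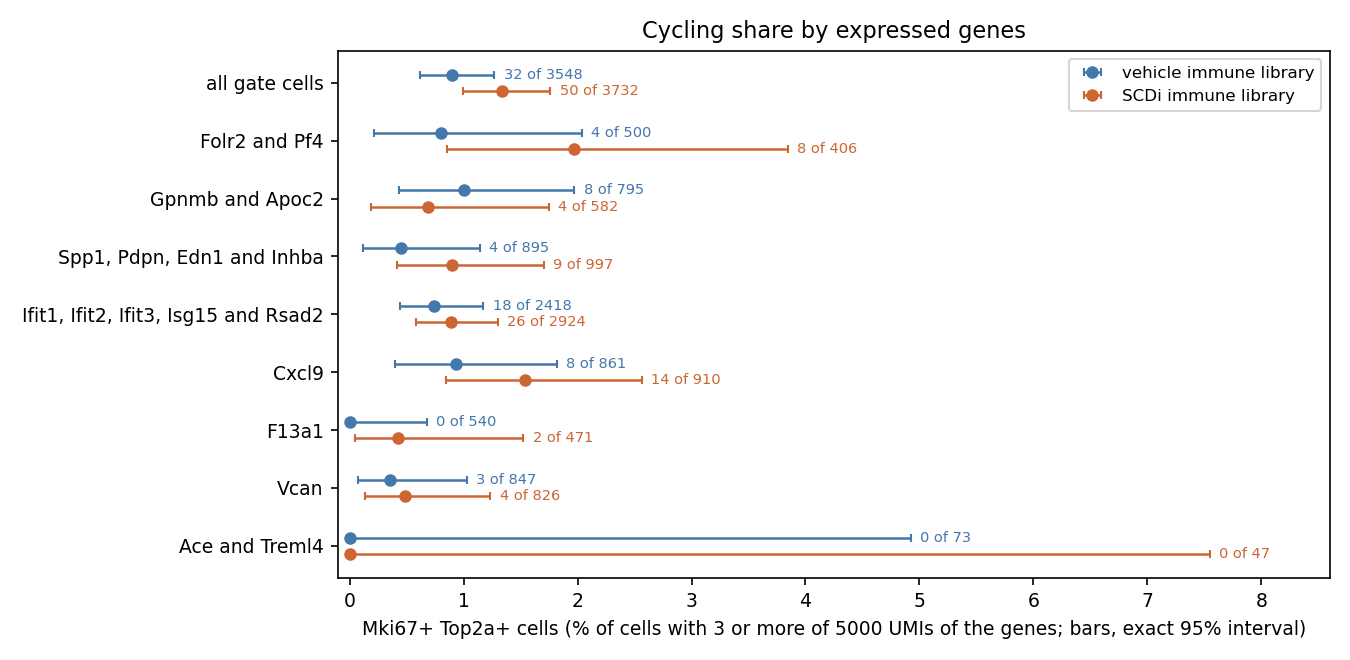
Share of Mki67+ Top2a+ cells (x, percent with exact 95% intervals, counts beside them) among myeloid cells holding at least 3 of 5000 UMIs of the genes named at left, for vehicle (blue) and SCDi (orange). Mki67 and Top2a were counted at full depth. The F13a1 range holds 0 of 540 and 2 of 471, and the widest intervals belong to the Ace and Treml4 range with 0 of 73 and 0 of 47.

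Between treatments, more genes differed within the double-positive cells than within the non-cycling cells. Of 3914 genes at 50 CPM or more 5.57% were over 1.5-fold higher in SCDi and 8.58% lower; in non-cycling cells these were 0.371% and 0.656%. Small numbers of cells widen such ratios, so the 2 shares are not a measure of response. The 12 lowest genes in SCDi, led by Lhfpl3 and Brinp3, drew 99 to 100% of their vehicle UMIs from the 1 cell with oligodendrocyte lineage transcripts and had 0 UMIs in the SCDi members.

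Several of the 12 genes highest in the SCDi members encode surface receptors. Clec4b1, a C-type lectin receptor, stood at 28.4 CPM in the vehicle and 189 in the SCDi members (2.72 as a log2 ratio, 2.27 to 3.24), from 12 of 34 and 29 of 52 cells. In non-cycling cells its ratio was 1.24, and in the remaining members 2.51. Cd300e, an activating receptor of patrolling monocytes, was at 25.6 and 167 CPM (2.69), from 9 and 29 cells, with 1.07 in non-cycling cells. Fcrl5, an Fc receptor-like gene, was at 5.69 and 69.3 CPM (3.52, 2.59 to 4.84), from 4 and 19 cells, with 1.22. The SCDi and vehicle ratios of these 3 genes had one sign in double-positive and non-cycling cells. Grap2, an adaptor of immune receptor signalling, had a ratio of 2.17, and Ptprm, a receptor phosphatase, 1.70. Vcam1, an adhesion ligand, was at 8.53 and 88.7 CPM (3.32, 2.54 to 4.35), with -0.38 in non-cycling cells. Pf4, platelet factor 4, which macrophages also make, was at 71.1 and 278 CPM (1.96, 1.66 to 2.29), with -0.62, and Spp1 at 151 and 489 (1.70), with 0.23. Within the vehicle library Pf4 was lower in the members than in non-cycling cells (-2.03), so its ratio between the libraries starts from a low vehicle level. S100a8 owed 96% of its SCDi UMIs to 1 cell, and its ratio of 2.95 was -1.82 in the remaining members. With Mki67 or Top2a in place of both, the ratios of Vcam1 (-0.16), Pf4 (-0.21), Spp1 (-0.014) and S100a8 (-0.40) turned. In members of 10000 to 40000 UMIs those of Pf4 (-0.31), S100a8 (-1.04) and Hist1h2ap, a histone gene named by the rule (1.71 in all members, -0.39), turned as well.

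Lower in SCDi, by the same rule applied to the remaining members (chosen after seeing the data; 6.73% of genes were higher and 8.75% lower there), was Klf2, a factor of quiescence and vascular sensing, at 440 CPM in 18 of 31 vehicle cells and 60.3 in 32 of 51 SCDi cells (-2.86, -3.15 to -2.59). In non-cycling cells it differed by -0.97. Cxcr4, the CXCL12 receptor, was at 98.4 and 23.1 CPM (-2.08), from 25 and 20 cells. Arg1, arginase 1, was at 50.9 and 1.81 (-4.65), from 4 and 3 cells, and by -2.00 in non-cycling cells. Cd36, a lipid scavenger receptor, was at 340 and 23.6 (-3.84), with 54.9% of the vehicle UMIs from 1 cell, and Acod1 (-1.82) owed 72.7% to 1 cell. Ccl24 had 80 UMIs in vehicle, 98.8% of them in 1 cell, and none in SCDi. Genes detected in few cells thus carried several of the lowest ranks.

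By lists, replication genes were mostly higher in SCDi. In all double-positive cells 33 of 35 S phase genes were higher, where 49.2% of genes at 5 CPM were, and 20 of them by over 1.5-fold, which 10.3% of genes passed, with a median of 0.66 against -0.009 for all genes. In the remaining members it was 34 of 35 (0.72, where 53.9% of genes were higher), above the 99th percentile 28 of 35 (0.42, where 52.5% were), and in non-cycling cells 11 of 19 (0.046, where 46.2% were). Uhrf1, which guides maintenance of DNA methylation, was at 21.3 and 71.5 CPM (1.73, 1.18 to 2.36), Hells, a chromatin remodeller, at 22 and 60.9 (1.45), and Tk1 at 65.4 and 130 (0.99). G2 and mitosis genes did not follow: 25 of 48 were higher in all members (0.009), 38 in the remaining (0.19) and 14 above the percentile (-0.15). Ect2, needed for cytokinesis, was at 51.9 and 19.0 CPM (-1.44), and -0.61 in the remaining members. At 10000 to 40000 UMIs the S phase median was 1.38 and that of G2 and mitosis 0.097. The share of members above the 99th percentile was 61.5% in SCDi and 47.1% in vehicle, with overlapping intervals. What this share contributes to the S phase level was not tested.

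Nucleotide and one-carbon synthesis genes were higher in 11 of 18 (0.17), in 17 of 18 of the remaining members (0.63) and in 15 of 18 above the percentile (0.56), against 10 of 12 in non-cycling cells (0.093). Of all genes 49.2% were higher in all members, 53.9% in the remaining, 52.5% above the percentile and 46.2% in non-cycling cells. Respiratory chain genes were higher in 20 of 23 (0.29), 22 (0.32) and 21 (0.35), with 21 of 23 (0.15) in non-cycling cells. Atp5b, an ATP synthase subunit, was at 473 and 561 CPM (0.25). Type I interferon genes were higher in 14 of 22 (0.08), in 9 of the remaining members (-0.05) and in 20 of 22 in non-cycling cells (0.25). Interferon gamma genes were higher in 5 of 15 (-0.38) and 11 of 15 (0.099). Ciita, the master regulator of MHC class II genes, was at 93.1 and 31.8 CPM (-1.55), against -0.25 in non-cycling cells.

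Recruited monocyte genes were higher in 3 of 17 (median -0.59) and 2 of 17 of the remaining members (-0.75), but in 10 of 17 of those above the 99th percentile (0.70), against 5 of 17 in non-cycling cells (-0.14). In members of 10000 to 40000 UMIs the median was -0.015, so neither size nor direction was stable. Plac8 was at 521 and 364 CPM (-0.52), and by 2.24 higher in SCDi above the percentile. Lipid-laden genes were higher in 4 of 20 (-0.52), 4 (-0.71), and 2 of 19 (-0.97), against 5 of 20 in non-cycling cells (-0.19). Trem2, a lipid-sensing receptor, was at 269 and 150 CPM (-0.84), and Cd63 at 813 and 465 (-0.81). Immediate early genes were higher in 2 of 18 (-0.40) and in 0 of 18 in non-cycling cells (-0.27), and hypoxia and glycolysis genes in 2 of 21 (-0.28) and 2 of 22 (-0.21). Beside these counts, 49.2% of all genes were higher in all members, 53.9% in the remaining, 52.5% above the percentile and 46.2% in non-cycling cells.

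**Figure D5:**
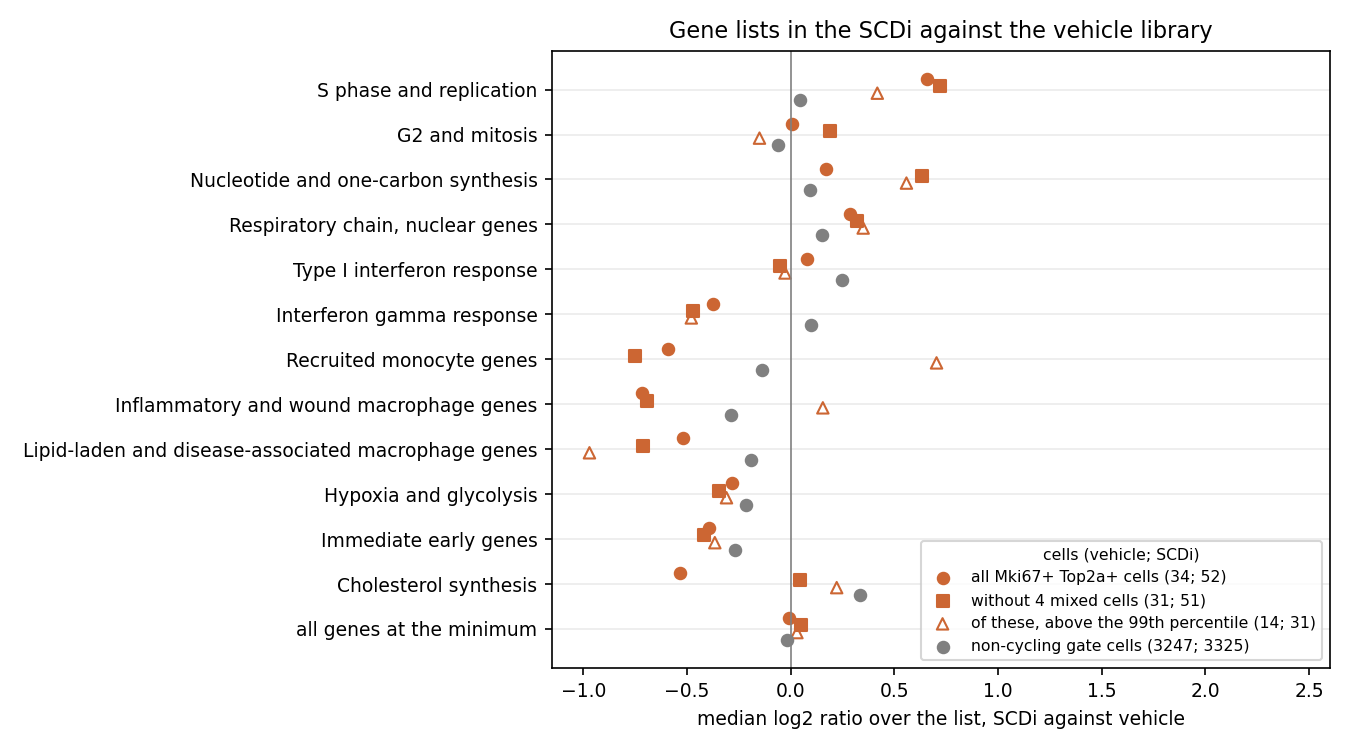
Median log2 ratio (x) of SCDi against vehicle for each gene list (y) in all Mki67+ Top2a+ cells (filled circles), without the 4 mixed cells (squares), among these above the 99th percentile of cell cycle UMIs (open triangles) and in non-cycling cells (grey). S phase genes lie at 0.66, 0.72, 0.42 and 0.046, while recruited monocyte genes lie at -0.59, -0.75, 0.70 and -0.14.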

How the data were processed

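Gene by barcode UMI counts of 4 libraries were deposited as 10x matrices. Per the submitters' processing notes, Cell Ranger 7.1.0 and mm10 were used; no further settings are stated. The deposited counts were analysed as they stand, with 135851178 UMIs in the vehicle and 141068797 in the SCDi immune library. UMIs were summed over the cells of a population, scaled to CPM and compared as log2 ratios after 0.5 counts were added, with exact conditional binomial 95% intervals; shares carry Clopper-Pearson and their differences Newcombe intervals. All cover counting error only, and floors use 3 counts. Named genes had 50 CPM in 1 of the populations, without mitochondrial, ribosomal, predicted and gate genes: the 12 highest and 12 lowest by the smaller ratio of the 2 libraries, or by the SCDi ratio. List genes needed 5 CPM. Some genes that the rule selects are not reported here. Doublets were scored by neighbourhood with simulated pairs and kept. The ratio script was tested on simulated counts drawn per gene, without cells. That test cannot tell how the intervals hold where 1 cell gives most UMIs of a gene. Python 3.11.15, numpy 2.4.6 and scipy 1.17.1 were used. The members, gene lists and thresholds were chosen with earlier results of these data known. Thinning, gate limits, scaling, depth windows and cycling rules were varied; leaving out the 4 mixed members, the 99th percentile and the list UMI rules were added after seeing the data.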

Additional observations from a re-analysis of the deposited data

Results flagged for a closer look

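Several SCDi over vehicle values had opposite signs in double-positive and non-cycling cells; these differences were not tested. Vcam1 had a log2 ratio of 3.32 in double-positive cells and -0.38 in non-cycling cells, and Pf4 1.96 and -0.62. With either gene in place of both, these ratios were -0.16 for Vcam1 and -0.21 for Pf4, and Pf4 had -0.31 in members of 10000 to 40000 UMIs. Within the vehicle library Pf4 was lower in double-positive than in non-cycling cells (-2.03). S100a8 had 2.95, most of it from 1 cell with neutrophil transcripts. The cholesterol synthesis list had a median of -0.53 against 0.33, and 0.044 without the 4 mixed members. The stearoyl-CoA desaturases had a median of -0.67 against 0.75, over Scd1 and Scd2 in the first and Scd2 alone in the second. Scd1 was at 5.69 and 1.32 CPM and Scd2 at 27.7 and 43.2 CPM in the vehicle and SCDi double-positive cells. All 8 vehicle Scd1 UMIs came from 2 mixed members, 4 from the cell rich in Krt8 and 4 from that with oligodendrocyte lineage transcripts. Without the 4 mixed members the desaturase median was 1.17, over Scd2 alone, with the same sign as in non-cycling cells.

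The tumour libraries, which enter no comparison, held barcodes that passed the same rule: 9 in the vehicle and 4 in the SCDi tumour library. All of them held Krt8, with medians of 97 and 75 UMIs, and none held Ptprc.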

How the results depend on the processing

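No paired analysis was possible because each treatment and sort is 1 library, so no replicate could be left out either. Of the main values under all alternatives, 113 stayed within their error or within 1.5 times and 28 did not; of 440 medians recomputed for 10 lists, 357 moved by under 0.3, 74 by more, and 9 that were at least 0.1 from 0 changed sign. So did 16 of the others, whose medians were nearer 0. The cause was not tested. The share difference, 0.096 percentage points at 5000 UMIs, was 0.431 unthinned, 0.846 with either gene and 0.560 by list UMIs, all with SCDi higher. The vehicle share with more S UMIs was 25.8% at 10000 UMIs.

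Genes over 1.5-fold, of 486 higher and 415 lower in vehicle double-positive cells, were 813 and 734 with 2 UMIs of each gene, 14 and 7 with either gene, 253 and 229 at 10000 to 40000 UMIs, 1169 higher at 20 CPM, 302 higher without mixed members and 715 lower above the 99th percentile. In SCDi, of 571 and 483, they were 45 and 25 with either gene, 343 and 167 at that depth, and 1239 higher at 20 CPM. Between treatments, of 218 and 336, they were 401 and 527 with 2 UMIs, 31 and 68 with either gene, 504 and 705 at 20 CPM, 361 higher above the percentile and 512 higher at 10000 to 40000 UMIs. Genes whose SCDi ratio was over 1.5-fold higher or lower in double-positive than in non-cycling cells, 169 and 240, came to 9 and 9 with either gene. The 486 and 415 were of 3897 genes (12.5% and 10.6%), and the 571 and 483 of 3846 (14.8% and 12.6%). The 218 and 336 were of 3914 (5.57% and 8.58%). The number of genes measured changes with the CPM floor and the cells. It is not given for the alternatives or for the 169 and 240, so a change in these counts is not a change in share.

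Of the medians at least 0.1 from 0, signs changed for cholesterol synthesis (double-positive against non-cycling: vehicle -0.11 above the percentile, SCDi 0.10 at matched depth; between treatments 0.018 with 2 UMIs, 0.044 without mixed members, 0.22 above the percentile, 0.11 with either gene), nucleotide synthesis (-0.19 with 3 macrophage UMIs), and, above the percentile, recruited monocyte (0.70) and inflammatory genes (0.16). Nearer 0 they changed for G2 and mitosis (-0.38 to -0.0091 in 6 settings) and type I interferon genes (-0.23 to -0.027 in 3) between treatments, and for lipid-laden genes in vehicle (0.014 to 0.19 in 7). Of all 28 lists, 3 in vehicle, 0 in SCDi and 4 between treatments changed sign without the mixed members, and 5, 0 and 12 above the percentile, ATF4 targets and desaturases among those between treatments in both. The 12 lowest of the genes named between treatments took nearly all their vehicle UMIs from the mixed cell with oligodendrocyte lineage transcripts. The SCDi members held none. That cell was left out without mixed members, above the percentile and at 10000 to 40000 UMIs. In these settings the sign of the 12 genes came from few or no UMIs, so their direction could not be tested. Counting them as kept, 20 to 24 of the 24 genes named between treatments kept their direction. Those that turned were Vcam1, Pf4, Spp1 and S100a8 with either gene, Pf4, S100a8 and Hist1h2ap at 10000 to 40000 UMIs, Col11a1 with 3 macrophage UMIs (0.63), and S100a8 without Krt8 cells (-1.36), without mixed members and above the percentile.

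These values rest on 34 and 52 cells, of which 18 and 20 were not above the 99th percentile of non-cycling cells in cell cycle UMIs.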

Other observations

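Of 11 measured chemokines that recruit monocytes 6 were higher in vehicle double-positive cells than in non-cycling cells and 4 in SCDi, where 58.5% and 58.9% of genes were higher. Ccl2 was at 722 CPM against 626 in vehicle and 1306 against 883 in SCDi, and its SCDi ratio was 0.85 in double-positive and 0.50 in non-cycling cells. Ccl8 was at 2573 against 1431 CPM in vehicle and 1015 against 1453 in SCDi, detected in 21 of 34 and 35 of 52 members. Its SCDi ratio was -1.34 in double-positive and 0.02 in non-cycling cells.

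Cell cycle transcripts also occurred without the 2 proliferation genes. Of the 21 vehicle and 43 SCDi cells with at least 15 list UMIs of 5000, 7 and 5 held no UMI of Mki67 or Top2a at full depth, and 3 and 12 held 1 of the genes.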
